A study of Drosophila melanogaster with 3 samples.

Results

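Of the 4371 Myc peaks that passed the irreproducible discovery rate (IDR, a filter that keeps peaks ranked alike in replicates), 883 (20.2%) lay in introns away from promoters. A peak belonged to this set when its summit was over 500 bp from every start of a protein-coding transcript, in no annotated exon, and inside a protein-coding transcript. The others were 2991 promoter peaks (summit within 500 bp of a coding start), 363 intergenic and 134 exonic peaks. Chromatin immunoprecipitation and sequencing was run on whole Drosophila melanogaster embryos of the strain dm-GFP, a transgenic line that stably expresses Myc (the product of dm) fused at its C terminus to green fluorescent protein (the labels call the tag GFP and eGFP). The embryos were 0 to 16 h old with both sexes pooled, and the antibody was against the tag. There were 3 biological replicates, all of 1 line and 1 group, so the study holds no second condition and no tissue can be told from another. The labels do not say whether the untagged gene was still present.

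Myc is a basic helix-loop-helix leucine zipper transcription factor that binds DNA as a dimer with Max and promotes growth, ribosome production and cell cycle entry. Its best known site is the palindrome CACGTG, the canonical E-box. In flies, as in other animals, Myc is found mostly at promoters of transcribed genes, many of them without that site, and introns near the start of a gene often hold enhancers.

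The sequences below are the 101 bases centred on the summits of the 4 strongest intronic peaks without a canonical E-box and of 4 of the 5 strongest with one, because the 2 kinds differed in base composition and in how the replicates saw them. Capitals mark the canonical word CACGTG, the variant E-box CATGTG, and the variant CACGCG, which reads CGCGTG on the other strand. A further variant searched, CAGCTG, was absent from all 8. All windows lay in introns.
ush, dm6 chr2L:481007-481107, plus strand: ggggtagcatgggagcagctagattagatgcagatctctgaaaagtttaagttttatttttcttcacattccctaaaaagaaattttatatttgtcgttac
CG11050, dm6 chr2L:6612657-6612757, plus strand: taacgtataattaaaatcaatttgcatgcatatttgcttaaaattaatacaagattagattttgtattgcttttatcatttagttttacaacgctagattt
Lk6, dm6 chr3R:11760998-11761098, plus strand: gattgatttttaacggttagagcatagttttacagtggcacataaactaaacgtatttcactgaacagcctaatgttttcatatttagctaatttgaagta
CG9663, dm6 chr2L:3302128-3302228, plus strand: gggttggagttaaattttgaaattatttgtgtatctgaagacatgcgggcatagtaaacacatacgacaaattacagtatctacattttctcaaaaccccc
crp, dm6 chr2L:16269572-16269672, plus strand: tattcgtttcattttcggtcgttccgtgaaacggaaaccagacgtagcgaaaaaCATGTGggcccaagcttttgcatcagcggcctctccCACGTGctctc
srl, dm6 chr3R:4428732-4428832, plus strand: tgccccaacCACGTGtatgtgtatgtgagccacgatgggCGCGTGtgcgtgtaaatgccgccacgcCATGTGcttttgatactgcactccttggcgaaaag
InR, dm6 chr3R:21613424-21613524, plus strand: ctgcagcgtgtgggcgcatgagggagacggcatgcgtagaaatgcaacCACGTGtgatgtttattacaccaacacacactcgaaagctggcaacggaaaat
Eip74EF, dm6 chr3L:17612371-17612471, plus strand: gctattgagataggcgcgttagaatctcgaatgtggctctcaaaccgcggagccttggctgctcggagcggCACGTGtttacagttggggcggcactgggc
GC made up 33.7% of the window in ush, 21.8% in CG11050, 30.7% in Lk6 and 35.6% in CG9663. It made up 51.5% in crp, 55.4% in srl, 51.5% in InR and 59.4% in Eip74EF.

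Replicate 3 stood apart from the other 2. Of the strongest 4371 peaks of a replicate (its top list), 824 were intronic in replicate 1, 833 in replicate 2 and 1069 in replicate 3. Promoter peaks numbered 3096, 3065 and 2706 in the same order of replicates. The intronic share was 18.9%, 19.1% and 24.5%, or 20.8% ± 3.2 (SD, n = 3), and 19.0% without replicate 3. The depth of the libraries is unknown, and the 95% Wilson intervals given below cover counting error only.

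Intronic peaks spanned the whole range of signal, the peak caller's own score. Their signal had a lower quartile of 129, a median of 160 and an upper quartile of 226, against a median of 186 at promoter peaks. The lowest value was 110 and the highest 2067, above the highest promoter peak (2033). Of the 883 intronic peaks, 35 had a signal above 500 and 6 above 1000, against 248 and 35 of the 2991 promoter peaks. Among the strongest 25% of IDR peaks were 17.6% of the intronic and 28.3% of the promoter peaks. The 100 strongest IDR peaks held 12 intronic and 82 promoter peaks.

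The strongest intronic peak lay in the first intron of u-shaped (ush), a cofactor of GATA transcription factors, at summit chr2L:481057, 4837 bp from the nearest start of ush. The peak was also 1369 bp upstream of a start of another gene, cbt, that lies inside the same intron. Its relative signal (its signal in a replicate over that of the median IDR peak found in the replicate) was 9.67, 9.36 and 14.4 in replicates 1, 2 and 3, or 11.1 ± 2.8 (SD, n = 3). CG11050 held the next peak, with relative signals of 7.60, 7.68 and 10.7. Its summit was in an intron of 140 bp, shorter than the called peak of 494 bp. The peak in the first intron of Lk6, a kinase of the translation factor eIF4E, reached 6.25, 5.35 and 9.73. All 3 peaks stood highest in replicate 3, and their lowest replicate was still over 5 times the median peak.

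The peak of CG9663 had relative signals of 5.33, 4.75 and 8.96, and that of CG32772 had 4.72, 4.37 and 7.70. A peak in Tousled-like kinase (Tlk) had 4.02, 4.50 and 5.99. In an intron shared by HmgD and HmgZ, which code for HMG-box chromatin proteins, the values were 4.23, 3.30 and 5.66. These peaks, too, were highest in replicate 3 and held no E-box word. The transcription factor gene Adf1 showed the same order, with 3.43, 3.34 and 6.28.

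The 5 strongest peaks with a canonical E-box showed the opposite order of replicates. In cropped (crp), which codes for a helix-loop-helix zipper factor, the relative signal was 6.82, 7.27 and 4.27 in replicates 1, 2 and 3. Tudor-SN, a nuclease-domain protein of RNA silencing complexes, had a peak with 4.71, 4.82 and 3.18 in its first intron. In spargel (srl), the fly homologue of the mitochondrial coactivator PGC-1, the peak 553 bp from the start had 5.19 in replicate 1 and 3.12 in replicate 3, with no summit within 100 bp in replicate 2. Replicate 3 was the lowest at each of these peaks.

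The insulin receptor gene InR carried a peak with 3.60, 5.14 and 1.61, 5562 bp from its start in the first intron. Eip74EF, an ETS-domain factor induced by the steroid ecdysone, carried one with 2.36, 2.11 and 2.00. InR differed most between replicates of the 5, with replicate 2 over 3 times replicate 3.

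**Figure D1:**
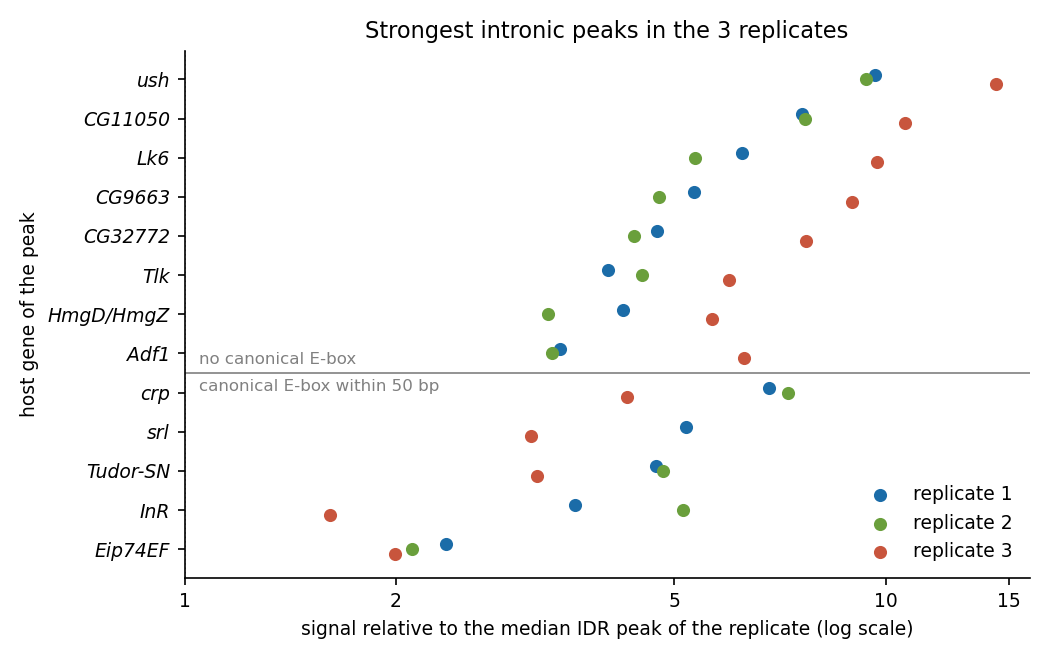
Relative signal (log scale, 1 is the median IDR peak) in each replicate of the 10 strongest intronic peaks found in all 3 top lists and of the 5 strongest with a canonical E-box, named by host gene; crp and Tudor-SN belong to both sets. Replicate 3 is the highest point in the 8 peaks above the line, without the E-box, and the lowest in the 5 below it; srl has no point for replicate 2.

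The same held across the set. Among the 766 intronic peaks found in all 3 relaxed lists (the longer lists from which IDR selects), replicate 3 was the highest of the 3 in 6 of 25 with a canonical E-box (24.0%), against 462 of 741 without it (62.3%). Replicate 3 was the lowest in 16 of 25 with the E-box (64.0%) and in 145 of 741 without it (19.6%). The median ratio of replicate 3 to the mean of the other 2 was 0.69 with the E-box and 1.33 without. Promoter peaks had the E-box split too, at 0.65 with it and 0.90 without.

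Base composition moved with this order. Intronic peaks had a median GC of 35.6% within 50 bp of the summit, against 42.6% at promoter peaks and 40.6% in 456677 windows of the same width laid end to end along the introns (intron tiles). In the 227 intronic peaks under 30% GC, the median relative signal was 0.83, 0.89 and 1.18 in replicates 1, 2 and 3. In the 195 intronic peaks with 45% GC or more, it was 0.90, 0.91 and 0.72. Replicate 3 was thus the highest at the low end of GC and the lowest at the high end. At 45% GC or more, 161 intronic peaks were found in all 3 relaxed lists, with or without an E-box. Replicate 3 was the lowest in 57.8% of them. Top-list intronic peaks had a median GC of 39.6%, 38.6% and 33.7% in the 3 replicates. Intronic peaks with a canonical E-box had a median GC of 49.5%, against 34.7% without. What part GC has in the difference between replicates was not tested.

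A canonical E-box lay within 50 bp of the summit in 30 of 883 intronic peaks (3.40%, 95% interval 2.39 to 4.81), against 205 of 2991 promoter peaks (6.85%), 6.02% of all IDR peaks and 1.14% of intron tiles. In the top lists it was found in 4.00%, 5.04% and 1.87% of intronic peaks of replicates 1, 2 and 3, or 3.6% ± 1.6 (SD, n = 3), against 7.0% ± 0.7 of promoter peaks. Intronic peaks were lower than promoter peaks in 3 of 3 replicates, by 3.39 percentage points on average, and higher than tiles in 3 of 3, by 2.50. Each of these comparisons gave p = 0.25 in the exact two-sided sign-flip permutation test, the smallest p that 3 replicates allow. Of the 7 planned tests of this kind, 5 reached that value, and of 6 further ones within bands of GC, added after seeing the data, 5 did. Adjusted over all 13 by Benjamini-Hochberg, the lowest p was 0.325, so none could pass 0.05 in this design.

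The lower E-box share than at promoter peaks was not seen in all replicates at high GC. Among peaks with 45% GC or more, the E-box lay in 22 of 195 intronic IDR peaks (11.3%), against 93 of 1224 promoter peaks (7.60%) and 1.88% of tiles. In the top lists the shares at that GC were 8.43%, 11.0% and 8.45% for intronic peaks, against 9.16%, 8.39% and 8.20% for promoter peaks. Their difference was 0.72 ± 1.73 percentage points (SD, n = 3; exact sign-flip permutation test, p = 0.75), so its direction was not the same in all replicates. Under 35% GC the E-box was in 0.60% ± 0.09 of intronic peaks, against 2.1% ± 0.8 of promoter peaks and 0.45% of tiles. The 4 letters G and C of the word itself count in the GC of its window.

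**Figure D2:**
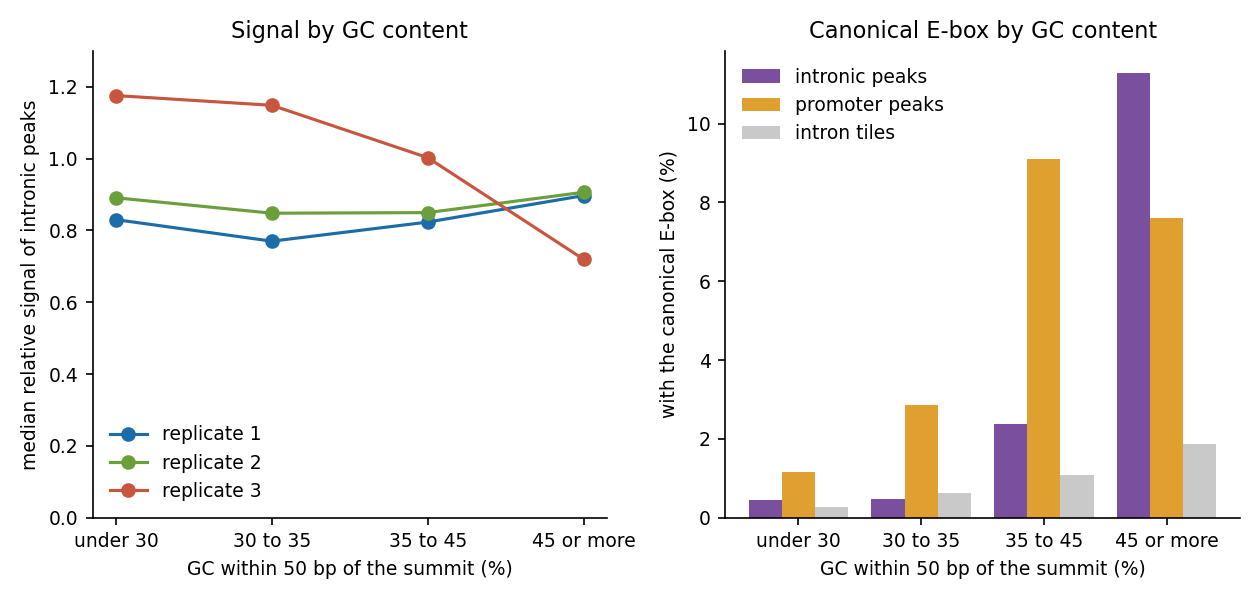
Left, median relative signal of the intronic IDR peaks in 4 bands of GC within 50 bp of the summit, per replicate; replicate 3 lies above the other 2 under 45% GC and below them at 45% or more (0.72, against 0.90 and 0.91). Right, share of intronic IDR peaks, promoter IDR peaks and intron tiles with a canonical E-box in the same bands; at 45% GC or more the shares are 11.3%, 7.60% and 1.88%.

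The E-box was spread over the range of signal differently in the 2 classes, a difference that was not tested. In the strongest 221 intronic peaks and 748 promoter peaks by signal, it lay in 7 intronic peaks (3.17%, 95% interval 1.54 to 6.39), against 127 promoter peaks (17.0%, 14.5 to 19.8). In the weakest, it lay in 12 of 220 intronic peaks (5.45%, 3.15 to 9.29), against 23 of 747 promoter peaks (3.08%). Among the strongest 25% of each class in the top lists of replicates 1, 2 and 3, its share was 4.85%, 6.70% and 2.24% of intronic peaks, against 18.7%, 19.6% and 11.96% of promoter peaks. The 50 strongest held the word in 4 intronic and 10 promoter peaks, and their median GC was 32.7% in introns and 43.1% at promoters. Signal had a median of 146 in intronic peaks with the E-box and 161 in those without, and 13 of 30 (43.3%) and 374 of 853 (43.8%) were in all 3 top lists.

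Other words were searched on both strands in the same windows. Among the other E-box words, CATGTG occurred in 8.83% of intronic peaks, against 7.19% of promoter peaks and 4.82% of tiles, and CACGCG in 2.83%, against 6.19% and 1.58%. CAGCTG occurred in 3.85%, against 8.69% of promoter peaks and 3.64% of tiles. Any of the 4 E-box words was present in 17.1% of intronic peaks, against 25.8% of promoter peaks and 10.7% of tiles. GAGAGAG, bound by GAGA factor, occurred in 3.40% of intronic peaks, against 2.11% of promoter peaks and 1.43% of tiles.

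Words of fly core promoters were nearly absent from intronic peaks. TATCGATA, the DREF element, lay in 1 of 883 intronic peaks (0.11%), against 202 of 2991 promoter peaks (6.75%) and 0.19% of tiles. GGTCACAC, the core of Motif 1, lay in 2 intronic peaks (0.23%), against 5.22% of promoter peaks and 0.15% of tiles. The homeodomain core TAATTA was at 7.47% of intronic peaks, beside 7.83% of tiles. CAGGTAG, bound by Zelda, was at 0.57% and 0.43%, TGACTCA, the AP-1 site, at 1.13% and 0.95%, and the repeat CACACACA at 4.53% and 2.85%. Of the control palindromes, AGCGCT was at 1.02% of intronic peaks, against 1.28% of tiles. GTGCAC was at 4.19%, against 2.03% of tiles, so a ratio of 2.07 to tiles also arose for a control word. TCCGGA was at 0.23%, against 0.87% of tiles.

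Among all 6-base words, joined with their reverse complements, 1233 occurred in at least 25 intronic peaks. CACGTG had the highest ratio of intronic peaks to tiles of these, 2.98. ACAGTG was next, in 9.85% of intronic peaks and 3.66% of tiles (ratio 2.69), then ACTGTA at 7.93% and 3.38% (2.34). These other 2 words were picked after their values were seen, and no test was made.

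Replicate support was lower than at promoters in 2 replicates and higher in the third. Of the intronic peaks, 387 (43.8%, 95% interval 40.6 to 47.1) were in all 3 top lists, against 1645 promoter peaks (55.0%) and 51.3% of all IDR peaks. A further 303 were in 2 top lists, 182 in 1 and 11 in none. Of the 182 in 1 list, 105 were in that of replicate 3. Top lists of replicates 1, 2 and 3 held 72.1%, 66.4% and 82.2% of intronic peaks, against 85.1%, 77.8% and 75.9% of promoter peaks. The difference was -6.0 ± 10.7 percentage points (SD, n = 3; exact sign-flip permutation test, p = 0.50), and -12.2 without replicate 3.

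Presence in the longer relaxed lists was alike in both classes. All 3 relaxed lists held 766 intronic peaks (86.7%), against 2566 promoter peaks (85.8%). The median relative signal of intronic peaks was 0.83, 0.87 and 1.06 in the 3 replicates, against 1.09, 1.08 and 0.99 at promoters. On the log2 scale the difference was -0.39, -0.32 and 0.09, with a mean of -0.21 ± 0.26 (SD, n = 3; exact sign-flip permutation test, p = 0.50). Within the GC band of 45% or more it was -0.29 ± 0.03, and under 35% it was -0.30 ± 0.16, with intronic peaks lower in 3 of 3 replicates in both bands (exact sign-flip permutation test, p = 0.25 each). Spearman's rho of the signal across intronic peaks of the same libraries was 0.60 for replicates 1 and 2, 0.54 for 1 and 3, and 0.46 for 2 and 3. At promoter peaks it was 0.73, 0.64 and 0.58 for the same pairs.

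Intronic peaks were concentrated in the first introns of their hosts. Ranked along the longest coding transcript around the summit, 466 of 883 (52.8%, 95% interval 49.5 to 56.0) were in the first intron, 280 in the second and 137 (15.5%) in later ones. First introns made up 30% of the 48.5 Mb of intron that could hold such a peak. Per Mb there were 32.1 peaks in first introns, 21.3 in second and 6.57 in later introns. In the top lists 52.9%, 53.9% and 51.2% of intronic peaks were in first introns. This was 22.7 ± 1.4 percentage points above the share of bases and higher in 3 of 3 replicates (SD, n = 3; exact sign-flip permutation test, p = 0.25).

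Density was lower at each step away from the nearest coding start. Top lists held 59.7 ± 5.7 intronic peaks per Mb of intron at 500 to 1000 bp, 33.1 ± 3.5 at 1000 to 2000 bp, 20.7 ± 3.2 at 2000 to 5000 bp and 14.8 ± 3.0 at 5000 to 10000 bp (SD, n = 3). From 10000 to 20000 bp it was 8.2 ± 2.2, and beyond 20000 bp 3.5 ± 1.6. Between 500 and 2000 bp the density was 41.6, 40.3 and 48.3 per Mb in replicates 1, 2 and 3, against 4.34, 4.85 and 7.77 beyond 10000 bp. The log2 ratio was 2.98 ± 0.32, positive in 3 of 3 replicates (SD, n = 3; exact sign-flip permutation test, p = 0.25).

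The first-intron share of the peaks was above that of the bases in all 6 distance bands. Within 500 to 1000 bp of a start, 69.8% of the intronic IDR peaks were in a first intron, against 53.0% of the bases. Beyond 20000 bp the shares were 25.7% of 35 peaks and 9.43% of the bases. The median signal was 173 in the nearest band and 137 in the farthest, and the share in all 3 top lists was 48.8% and 37.1%. The canonical E-box was in 9 of 215 peaks (4.19%) in the nearest band and in 0 of 35 in the farthest.

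**Figure D3:**
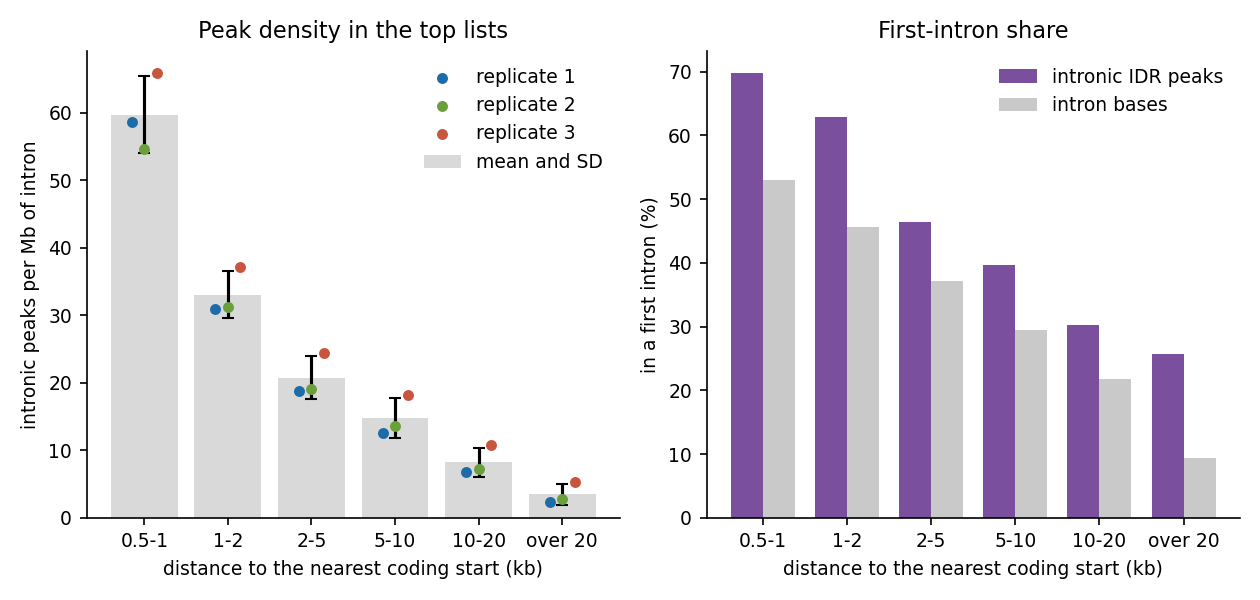
Left, intronic peaks per Mb of intron in 6 bands of distance to the nearest coding start, for the top list of each replicate (points) with mean and SD (bars); the mean is 59.7 at 500 to 1000 bp and 3.5 beyond 20000 bp. Right, share in a first intron of the intronic IDR peaks and of the intron bases in the same bands; the peaks are above the bases in all 6.

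The median distance to a coding start was 2198 bp (quartiles 1016 and 5426.5 bp), and the farthest peak was 79980 bp away. The nearest start belonged to the host gene for 747 peaks (84.6%), and 593 summits (67.2%) were downstream of it. The median peak lay 29.3% of the way along the transcript. The median peak lay in an intron of 10711 bp. Just beyond the 500 bp limit, 10 intronic peaks were within 20 bp of it, with signals of 118 to 653, and 8 peaks in introns lay as close on the promoter side, with signals of 114 to 1265. A start of a non-coding gene was within 500 bp of 14 intronic peaks (1.59%), beside 0.93% of the intron bases.

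The 883 peaks lay in 593 host genes, 6.46% of the 9174 protein-coding genes with an intron base that could hold one. A single host was found for 835 peaks (94.6%), and nested or overlapping genes shared the others. There was 1 peak in 411 hosts, 2 in 102 hosts, 3 in 45 and 4 or more in 35. Another intronic peak lay within 5000 bp of 322 peaks (36.5%) and within 1000 bp of 110 (12.5%). Some called intervals overlap, as in rdx, ush and Tlk, and each was counted as a peak, so counts per host include such overlaps.

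CG1677 had the most peaks, 11, with signals of 120 to 358, all in the second intron of its longest transcript. That intron spans nested genes, and the nearest starts were those of 6 of them, unc-119, CBP, brk, Atg5, Dok and CG42780. The muscle founder cell gene kirre held 9 peaks with signals of 111 to 361 along a transcript of 394 kb. In roadkill (rdx), an adaptor that targets the Hedgehog effector Ci for degradation, 8 peaks had signals of 111 to 228. Of these 28 peaks, 10 were in all 3 top lists.

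Raf, the kinase below Ras in the EGFR pathway, held 7 peaks, and all 7 were in all 3 top lists. The strongest, in the second intron 2262 bp from a start, had a signal of 733 and relative signals of 3.38, 2.68 and 5.68 in replicates 1, 2 and 3. Of the 7 peaks, 6 lay in the first 8.62 kb of the 48.4 kb transcript. Hr4, a nuclear receptor of the ecdysone response, held 7 peaks with signals of 131 to 415, of which 4 were in all 3 top lists.

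The 7 peaks of ush had signals of 121 to 2067, and 5 were in all 3 lists. Tlk had 7, with signals of 120 to 899, and 4 in all 3 lists. CHES-1-like, a forkhead factor, had 7 peaks in 15.1 kb of eligible intron, a density of 465 per Mb, against 18.2 per Mb over all introns. A further host with 7 peaks, shn, the nuclear effector of Dpp, had signals of 113 to 258 and 1 peak in all 3 lists. In CG10543, named after its values were seen, 5 peaks lay in 3.23 kb of eligible intron.

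**Figure D4:**
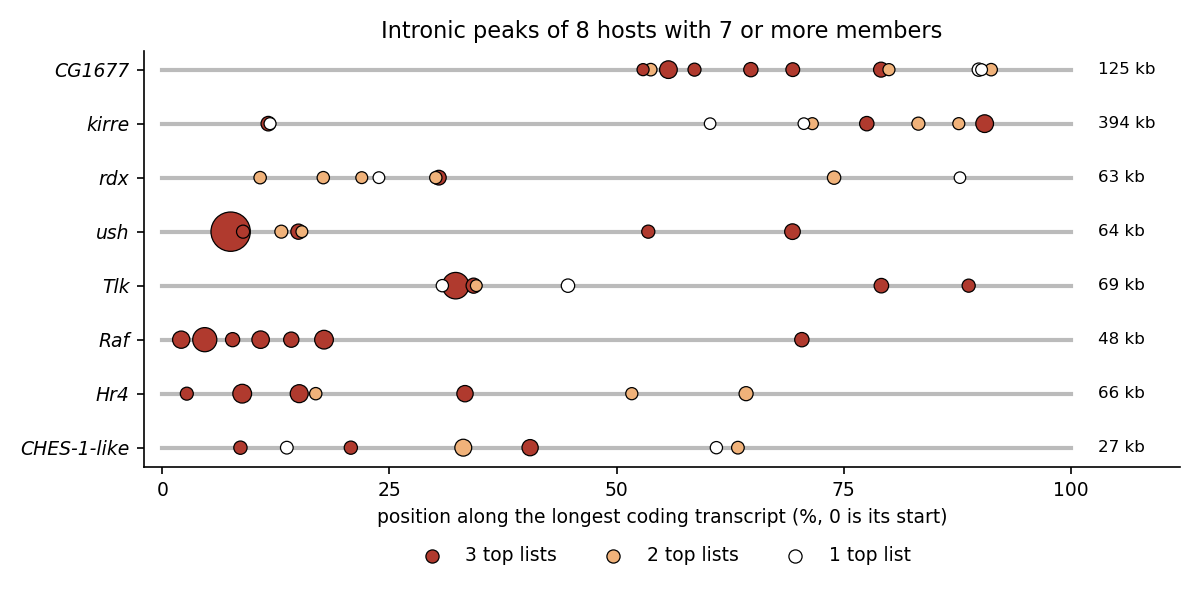
Intronic IDR peaks along the longest coding transcript of 8 of the 9 hosts with 7 or more of them (position in percent of its length, given at the right). Circle area grows with signal and colour gives the number of top lists; the 7 peaks of Raf are all in 3 top lists, and the largest circle is the ush peak with a signal of 2067. Of the 6 hosts tied at 7 peaks, shn, whose strongest peak is the weakest of the 6, is not drawn. Peaks with overlapping intervals are drawn separately.

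Hosts of intronic peaks more often had a promoter peak as well. In the IDR list 308 of 593 hosts (51.9%, 95% interval 47.9 to 55.9) had one, against 30.4% of all coding genes with eligible intron. In the top lists the share was 55.8%, 52.7% and 42.3% of hosts, against 30.8%, 28.9% and 28.5% of all such genes. The difference was 20.9 ± 6.2 percentage points, positive in 3 of 3 replicates (SD, n = 3; exact sign-flip permutation test, p = 0.25). Hosts have more intron (median 10934 bp, against 390 bp in genes without an intronic peak). The gap was seen in each band of intron length, and what part length has in it was not tested. With 1000 to 5000 bp of intron, 53.4% of 148 hosts had a promoter peak, against 29.0% of the other genes, and with over 50000 bp, 43.1% of 72 hosts, against 13.7%. Long genes were more often hosts, at 38.1% of genes with over 50000 bp and 0.51% of those with up to 1000 bp.

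Gene lists were compared with the 6.46% of all genes that are hosts and, because intron length differs between lists, with the number of hosts that the rates of 5 bands of intron length over all genes would give. The lists were chosen with earlier results of these data known, so they are a description only. A gene may be in more than 1 list, and no test was made. In the ecdysone response and nuclear receptor list 11 of 20 genes with eligible intron were hosts (55.0%; 4.93 at length-band rates), and they held 28 peaks. The receptor gene EcR itself held 4, the strongest with a signal of 350. Kr-h1, a zinc-finger gene that answers juvenile hormone, had relative signals of 2.99, 3.03 and 1.81 in replicates 1, 2 and 3, and Hr3, a nuclear receptor gene, had 1.77, 2.16 and 3.74 at a summit it shares with the overlapping genes CG12912 and CG46321.

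Growth signalling genes were hosts too. In the insulin and TOR list 7 of 28 genes were hosts (25%; 3.16 at length-band rates), with 13 peaks: Akt, ImpL2, InR, Lk6, REPTOR, sgg and sima. InR, the receptor, held 5 of them. In the EGFR and Ras list 10 of 29 genes were hosts (34.5%; 4.65 at length-band rates). Its 22 peaks had a median signal of 256, against 160 over all intronic peaks. Of the 22, 20 were in all 3 top lists, against 43.8% of all intronic peaks. Raf held 7 and S held 3 of these 20, so single genes weigh heavily in both values. Besides the 7 peaks of Raf, argos (aos), a secreted inhibitor of EGFR, carried one with relative signals of 1.79, 2.23 and 3.15. The summit of this aos peak is shared with the overlapping gene CG33158.

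In the Dpp and activin list 10 of 20 genes were hosts (50%; 2.69 at length-band rates), and shn alone held 7 of the peaks. The ligand dpp, the receptors put and wit, the Smads Mad and Smox, the inhibitor Dad and the nuclear effector shn were among them. A promoter IDR peak was present in 2 of these 10 hosts, against 308 of all 593 hosts (51.9%), a difference that was not tested. Mad had relative signals of 1.69, 1.84 and 3.05, and wit 2.10, 1.02 and 2.52. In the top lists 45%, 45% and 50% of this list were hosts, against 6.16%, 6.25% and 7.74% of all genes.

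Other signalling lists had between 3 and 7 hosts. In the Wnt list 7 of 23 genes were hosts (4.71 at length-band rates), with relative signals of 1.47, 2.25 and 2.16 at the receptor gene fz and of 1.39, 1.41 and 2.21 at the glypican gene dlp. In the Hedgehog list 5 of 15 were hosts (2.08 at length-band rates), with dlp again and the co-receptor gene boi, whose peak had 0.85, 0.88 and 1.03. In the Notch list 4 of 17 were (2.22 at length-band rates), with 1.24, 1.94 and 2.24 at the receptor gene N and 1.43, 1.08 and 2.40 at its coactivator mam. In the JAK/STAT list 3 of 11 were (1.28 at length-band rates), with 1.68, 1.24 and 1.89 at the repressor gene ken and 0.85, 0.67 and 1.58 at the feedback inhibitor Socs36E. In the Hippo list 4 of 20 were (2.54 at length-band rates), with 0.98, 1.25 and 1.43 at ex and 0.84, 0.71 and 1.38 at the polarity gene crb.

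Among nuclear regulators, 19 of 53 genes in a list of chromatin regulators and zinc-finger factors were hosts (35.8%; 7.24 at length-band rates), with 40 peaks. Trl, the gene of GAGA factor, held 4, and its strongest had relative signals of 2.60, 3.00 and 4.91. In the basic helix-loop-helix list 7 of 31 genes were hosts (22.6%; 4.37 at length-band rates), with 18 peaks. Myc itself held 3, in its second intron: the strongest, 8732 bp from a start, had 2.06 in replicate 1 and 2.85 in replicate 3 and no summit within 100 bp in replicate 2. Mnt, which codes for the antagonist of Myc at Max, held 4 peaks with signals of 133 to 193.

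RNA-binding regulators had 14 hosts of 38 (36.8%; 7.56 at length-band rates). The peak of squid (sqd), an RNA-binding protein that localizes messages in the oocyte, had 4.99, 4.41 and 2.93, and that of the translational repressor brat had 1.50, 1.91 and 2.44. Muscle genes had 7 hosts of 32 (5.02 at length-band rates), led by kirre with 1.66, 1.65 and 2.67 and mbc, a fusion gene, with 1.14, 2.07 and 1.40. Gap, pair-rule and dorsoventral genes had 5 of 26 (3.37 at length-band rates), with 1.19, 1.14 and 2.01 at the FGF ligand gene ths and 1.13, 1.23 and 1.71 at dpp.

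In the homeodomain list and the ion channel and synapse list the number of hosts was below that at length-band rates, in the IDR list and in all 3 top lists. Of 54 homeodomain genes 4 were hosts (7.41%, with 9.25 at length-band rates): Antp, NK7.1, ct and hth. The strongest of 4 peaks in Antp, at a summit shared with the overlapping gene CG46458, had 0.31, 0.94 and 1.19. The peak of NK7.1 had 0.60, 1.02 and 0.87. Of 45 ion channel and synapse genes 3 were hosts (6.67%, with 9.97 at length-band rates), all of them ion channel genes. These were KCNQ, with 1.80 and 3.37 in replicates 1 and 3 and no summit in replicate 2, Elk, with 0.61, 0.27 and 1.20, and NaCP60E. The top lists of replicates 1, 2 and 3 gave 3, 4 and 4 homeodomain hosts (8.58, 8.89 and 11.3 at length-band rates) and 2, 2 and 5 ion channel and synapse hosts (9.03, 9.56 and 12.2). Axon guidance and cell surface receptor genes had 7 hosts of 42 in the IDR list (16.7%; 10.8 at length-band rates), but 9, 11 and 13 in the top lists, close to the 9.66, 10.4 and 13.2 at length-band rates. Their peaks had relative signals of 1.50, 1.37 and 1.90 at the netrin receptor gene fra and 1.03, 1.16 and 1.63 at sli. None of the 50 cytosolic ribosomal protein genes with eligible intron was a host, but these hold 0.0133 Mb of it, where the rates by length would give 0.25 hosts.

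**Figure D5:**
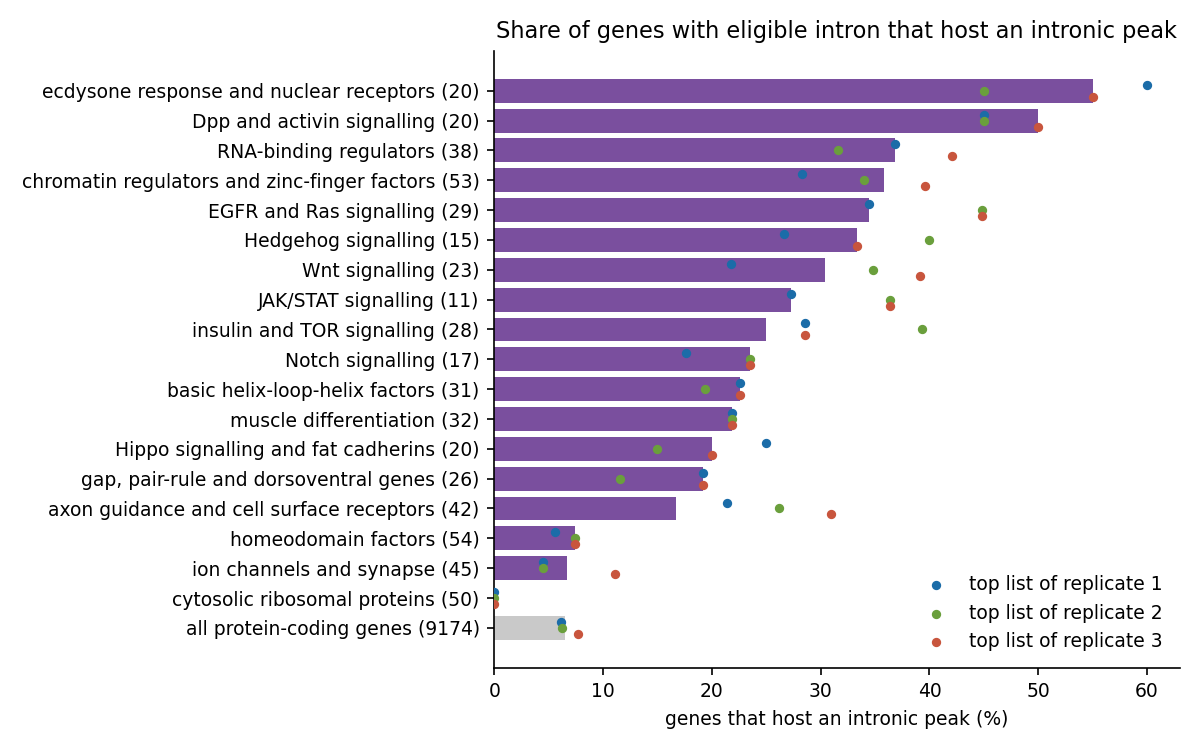
Share of the genes with eligible intron (number in brackets) that host an intronic IDR peak, for 18 gene lists and all protein-coding genes (bars), with the same share from the top list of each replicate (points). The ecdysone list (55.0%) and the Dpp list (50%) are at the top, and homeodomain genes (7.41%) and ion channel and synapse genes (6.67%) lie near all genes (6.46%). The lists were chosen with earlier results of these data known.

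By chromosome arm, the X had 23.2 intronic peaks per Mb of eligible intron in the IDR list, the autosomal arms 2L, 2R, 3L and 3R had 15.8 to 18.7, and the fourth chromosome 2.51, from 1 peak. In the top lists the X had 20.9, 19.8 and 31.0 per Mb in replicates 1, 2 and 3, against 17.2, 18.6 and 22.8 on 2L, the next arm. The weakest intronic peaks were in Hipk, larp and CG11357, each with a signal of 110. Their relative signals were 0.52, 0.49 and 0.77 in Hipk and 0.78, 0.57 and 0.46 in larp, and 0.56 and 0.81 in replicates 1 and 3 in CG11357, which had no summit in replicate 2.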

How the data were processed

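Chromatin immunoprecipitation sequencing peaks of GFP-tagged Myc from 3 biological replicates of whole embryos were used. The authors deposited dm6 peak lists, 1 relaxed list per replicate, 1 pooled, and 1 kept by IDR. The signal of each peak was made by the authors' peak caller as its own score and deposited in these lists. The −log10 q value of each peak was made by the authors' peak caller too and was only looked at. Fragments were 200 to 800 bp, per the labels; the aligner, caller and IDR threshold were not given in the sources used here.

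Summits were placed on Ensembl release 115 (BDGP6.54), whose arm lengths match dm6. Exons of any transcript, non-coding ones included, count as exons. Summits within 100 bp were shared. Top lists are the strongest 4371 peaks of each replicate. The members, 14 words and 18 gene lists were chosen with earlier results of these data known, and symbols in the lists were updated to the annotation's. Intervals are 95% Wilson intervals. Named genes are the 10 strongest peaks in all 3 top lists, the 5 strongest with a canonical E-box, the 8 hosts with most peaks (ties by the strongest peak), up to 2 hosts per list and the 3 weakest; others were picked after their values were seen. Python 3.11.15, numpy, pandas and scipy were used, with code tested on simulated data. Sequences are from the RefSeq dm6 genome. For each result 15 alternatives were planned where they apply, and 2 on GC were added after seeing the data. Signal tracks, alignments, controls and dm3 lists were not analysed here.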

Additional observations from a re-analysis of the deposited data

How the results depend on the processing

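No paired analysis was possible because there is 1 group of samples, so no replicate numbers match across groups; the differences tested are between classes of peak, genes or bases within each replicate. Each tested difference kept its direction under its alternatives with 2 exceptions. Counting presence in the whole relaxed list turned the difference in replicate support, intronic minus promoter peaks, to 0.27 percentage points, against -6.0 with top lists. Restricting to 45% GC or more was chosen after seeing the data. It turned the difference in canonical E-box share, intronic minus promoter peaks, to 0.72 ± 1.73 percentage points (SD, n = 3), against -3.39. The number of intronic peaks was 359 in the strongest 2185 of the list, 1042 with a limit of 250 bp, 668 with 1000 bp and 904 with exons of protein-coding transcripts only. The share of intronic peaks in all 3 top lists was 30.1% with summits shared within 50 bp, 50.1% within 200 bp and 48.7% in the strongest 2185, and 51.6% to 59.1% in both remaining lists when 1 replicate was left out. The intronic share of summits was 24.7% at 250 bp, 15.5% at 1000 bp and 16.8% in the strongest 2185. Leaving out 1 replicate gave differences of -12.2 to -2.57 points in support, -0.36 to -0.11 in log2 signal, 22.1 to 23.5 points in first-intron share, 2.84 to 3.16 in log2 density ratio, -3.95 to -2.88 and 1.80 to 3.38 points in E-box share against promoters and tiles, and 18.8 to 24.4 points in hosts with a promoter peak; replicate 3 moved support most. The 3 replicates of 1 line, with no read counts used, limit what can be said: no test could pass 0.05, and a signal is the caller's score, not a measure of occupancy.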
